A study of Mus musculus with 2 samples.

Results

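The TRIM family was followed through the immune cells of MC38 tumors with and without irradiation. Members were taken by name, as every gene whose symbol starts with Trim and a digit, pseudogene names left out. This gave 68 of the 32285 genes in the count matrices. MC38 is a mouse colon carcinoma line, grown here in WT (wild-type) mice. The Control library came from untreated tumors and the IR library from tumors given 1 dose of 20 Gy and collected 4 days later. Cells of pooled tumors were sorted as live CD45+ cells, and each condition was 1 single-cell library without a replicate. The sample records also name the narrower CD45+CD11b+Ly6Chi population, but both libraries held T cells, NK cells and dendritic cells.

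TRIM proteins typically carry a RING domain, 1 or more B-boxes and a coiled coil, and most are E3 ubiquitin ligases. The end of the protein sets the subfamily: a B30.2 (PRYSPRY) domain in many antiviral members, NHL repeats in others, and a PHD finger with a bromodomain in the chromatin cofactors. Many are known interferon-stimulated genes, and several act in the RIG-I and cGAS-STING pathways that sense foreign or misplaced nucleic acid.

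Of the 68 members, 2 had a higher level in IR than in Control by at least 1.5 times in each of 5 lineages, Trim30a and Trim30d. Another 7 (Trim8, Trim12c, Trim26, Trim27, Trim28, Trim33 and Trim41) stayed under 1.5 times in either direction in all 5, and are called steady here. They were 36.8% of the 19 members measured in all 5 lineages, a lower share than the 61% among all 7160 genes measured in all 5. A further 10 were measured in all 5 lineages but crossed 1.5 times in some only, and 22 were measured in 1 to 4 lineages. The remaining 27 had fewer than 20 UMIs over both libraries in every lineage, among them 14 with no UMI in any barcode kept. Each UMI (unique molecular identifier) stands for 1 RNA molecule that was captured. This grouping was made from the values and is a description, with no test.

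The lineages were set by marker genes in barcodes with at least 1000 UMIs: monocytes (787 Control and 1084 IR cells, on Ly6c2, Plac8, Ccr2, Chil3 and Hp), macrophages (1848 and 390, on the C1q genes), T cells (554 and 428), NK cells (225 and 284) and dendritic cells (156 and 184). Levels are given in CPM, the UMIs of a gene per 1000000 UMIs of the lineage, with exact Poisson 95% intervals. A ratio is IR over Control, with its exact conditional 95% interval. Both intervals take in counting error alone and leave out variation between animals and between libraries. A member was called higher or lower where it had at least 20 UMIs, a ratio of at least 1.5 in that direction and an interval off 1. The gate totals ran from 1243767 UMIs in Control dendritic cells to 17366552 in Control macrophages, so small members are least precise in dendritic cells.

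The summed marker lists of other gates moved with IR in some gates, and which cells this RNA came from was not tested. The 6 neutrophil markers summed to 91.9 CPM in Control and 280 CPM in IR monocytes, to 39.4 and 135 CPM in macrophages and to 2.12 and 136 CPM in T cells. In NK cells the same sum was 6.13 and 12.5 CPM, and in dendritic cells 18.5 and 15.4 CPM. The 5 genes of the monocyte gate summed to 772 CPM in Control macrophages and 1500 CPM in IR macrophages, and to 1250 and 2010 CPM in T cells. The markers shared by monocytes and macrophages summed to only 338 and 405 CPM in T cells. In dendritic cells the sum of the monocyte gate genes was 601 and 872 CPM and in NK cells 1060 and 1120 CPM. The 3 C1q genes went from 382 to 210 CPM in T cells and from 133 to 96.1 CPM in NK cells. They went from 191 to 77.3 CPM in dendritic cells and from 464 to 512 CPM in monocytes. Cells with at least 2 UMIs of cycling genes went from 33.3% to 17.4% of macrophages, from 11.1% to 7.47% of monocytes and from 14.7% to 5.43% of dendritic cells, and were 27.6% and 30.4% of T cells and 22.2% and 24.6% of NK cells. The part of these shifts in the results was not tested.

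Both risers belong to the Trim30 genes, which lie with other B30.2-type members on chromosome 7. The promoter sequences of both are shown, with those of the neighbours Trim30c, measured in monocytes and macrophages alone of the 5 lineages, and Trim12c, which was steady. All are from RefSeq, build GRCm38.p6, minus strand, and run 5′ to 3′ over the 250 bases before the annotated start. Capitals mark the letters TTTCNNTTTC, the core of an interferon-stimulated response element, searched on both strands.

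Trim30a, chr7:104465194-104465443: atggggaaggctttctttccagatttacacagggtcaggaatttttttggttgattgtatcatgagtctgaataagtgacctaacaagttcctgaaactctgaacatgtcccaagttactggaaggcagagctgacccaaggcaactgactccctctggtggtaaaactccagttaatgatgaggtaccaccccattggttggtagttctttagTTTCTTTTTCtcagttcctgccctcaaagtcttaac
Trim30d, chr7:104507850-104508099: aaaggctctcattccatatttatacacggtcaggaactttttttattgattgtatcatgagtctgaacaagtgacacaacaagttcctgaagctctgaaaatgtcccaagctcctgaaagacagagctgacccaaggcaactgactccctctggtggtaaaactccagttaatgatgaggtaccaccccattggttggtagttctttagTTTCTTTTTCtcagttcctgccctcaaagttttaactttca
Trim30c, chr7:104400779-104401028: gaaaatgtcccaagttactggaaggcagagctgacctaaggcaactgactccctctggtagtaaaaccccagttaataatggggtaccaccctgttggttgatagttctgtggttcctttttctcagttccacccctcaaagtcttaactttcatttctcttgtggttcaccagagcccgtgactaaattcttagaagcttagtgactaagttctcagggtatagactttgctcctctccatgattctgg
Trim12c, chr7:104353350-104353599: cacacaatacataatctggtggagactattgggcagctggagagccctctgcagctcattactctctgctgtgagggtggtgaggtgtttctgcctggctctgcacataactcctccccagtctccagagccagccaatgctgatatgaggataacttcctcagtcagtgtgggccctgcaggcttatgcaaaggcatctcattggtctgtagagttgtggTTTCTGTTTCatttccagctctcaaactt

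The motif began 36 bases before the start of Trim30a and 41 bases before that of Trim30d, with the same 10 letters in both. Trim30a has a further annotated start, where the motif began 2 bases after it. The letters were not in the window of Trim30c, whose level was higher in IR in monocytes and macrophages, while the steady Trim12c had them 29 bases before its start. Over windows of 300 bases (250 before and 50 after the start), 3.99% of all 27025 genes with a promoter in the table held the motif. Of the 53 members with a promoter there, 9 did (17%). They were Trim30a, Trim30d, Trim34a, Trim5, Trim12a, Trim12c and Trim21, all on chromosome 7, and Trim2 and Trim26. It was held by 6 of the 13 members called higher in at least 1 lineage that have a promoter there, by 3 of the 19 other measured members and by 2 of the 5 steady members with a promoter there, which are among those 19. A match is a description of these letters and not a shown binding site.

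Trim30a (ENSMUSG00000030921, chromosome 7, 104409025 to 104465193, GRCm38), encodes a B30.2-type TRIM known from rodent immune cells. In monocytes it was at 106 CPM in Control (97.5 to 115) and 201 CPM in IR (193 to 210), a ratio of 1.90 (1.73 to 2.09). In macrophages it was at 72.4 CPM and 133 CPM, a ratio of 1.83 (1.66 to 2.02). Both gates showed intervals that did not overlap between the libraries.
In T cells it went from 47.7 CPM to 121 CPM, the ratio of 2.55 (2.15 to 3.03) being its highest among the 5 lineages. In NK cells the levels were 54.5 CPM and 114 CPM, a ratio of 2.10 (1.65 to 2.69). In dendritic cells they were 81.2 CPM and 145 CPM, with a ratio of 1.78 (1.42 to 2.26) that was the nearest to the 1.5-times limit. The order of the lineages by level was led by monocytes in both libraries, where Trim30a stood 1.31 times (1.06 to 1.63) above dendritic cells in Control and 1.39 times (1.23 to 1.58) in IR. T cells and NK cells were lowest, with overlapping intervals.

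Trim30d (ENSMUSG00000057596, chromosome 7, 104470014 to 104507849) is the neighbouring gene and had a higher ratio than Trim30a in each of the 5 lineages. In monocytes it was at 26.4 CPM in Control (22.3 to 31.2) and 65.8 CPM in IR (60.9 to 70.9), a ratio of 2.49 (2.07 to 3). In macrophages it was at 15 CPM and 44.9 CPM, a ratio of 2.99 (2.47 to 3.6).
The lymphocyte and dendritic cell gates went the same way. T cells held 11.1 CPM and 28.9 CPM, a ratio of 2.6 (1.82 to 3.77). NK cells held 9.8 CPM and 24.2 CPM, on 16 and 66 UMIs. Dendritic cells held 23.3 CPM and 51.7 CPM. The intervals of Trim30a and Trim30d overlapped in 4 of these lineages and stood apart in macrophages, where they are 1.66 to 2.02 and 2.47 to 3.6.

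Over all genes, 52 of the 7160 measured in all 5 lineages reached 1.5 times in each (0.726%), against 2 of the 19 members measured in all 5 (10.5%). With every cell given the same weight, by the mean of its CPM, both risers stayed above 1.5 in each lineage, from 1.65 to 2.4 for Trim30a and from 2.13 to 3.06 for Trim30d. Thinning each cell to 1000 UMIs left 40 and 42 UMIs of Trim30a in T cells, a ratio of 1.36 (0.86 to 2.15), and too few UMIs of Trim30d in 3 lineages, so that no member then met the rule. The sum of both risers over the gate totals was 133 and 267 CPM in monocytes, a ratio of 2.02 (1.86 to 2.19). All other members together had a ratio of 1.10 (1.06 to 1.15) there and between 0.945 and 1.05 in the 4 other lineages. The risers were picked by their ratios in these same gates, so this contrast follows from the rule and is no separate evidence.

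**Figure D1:**
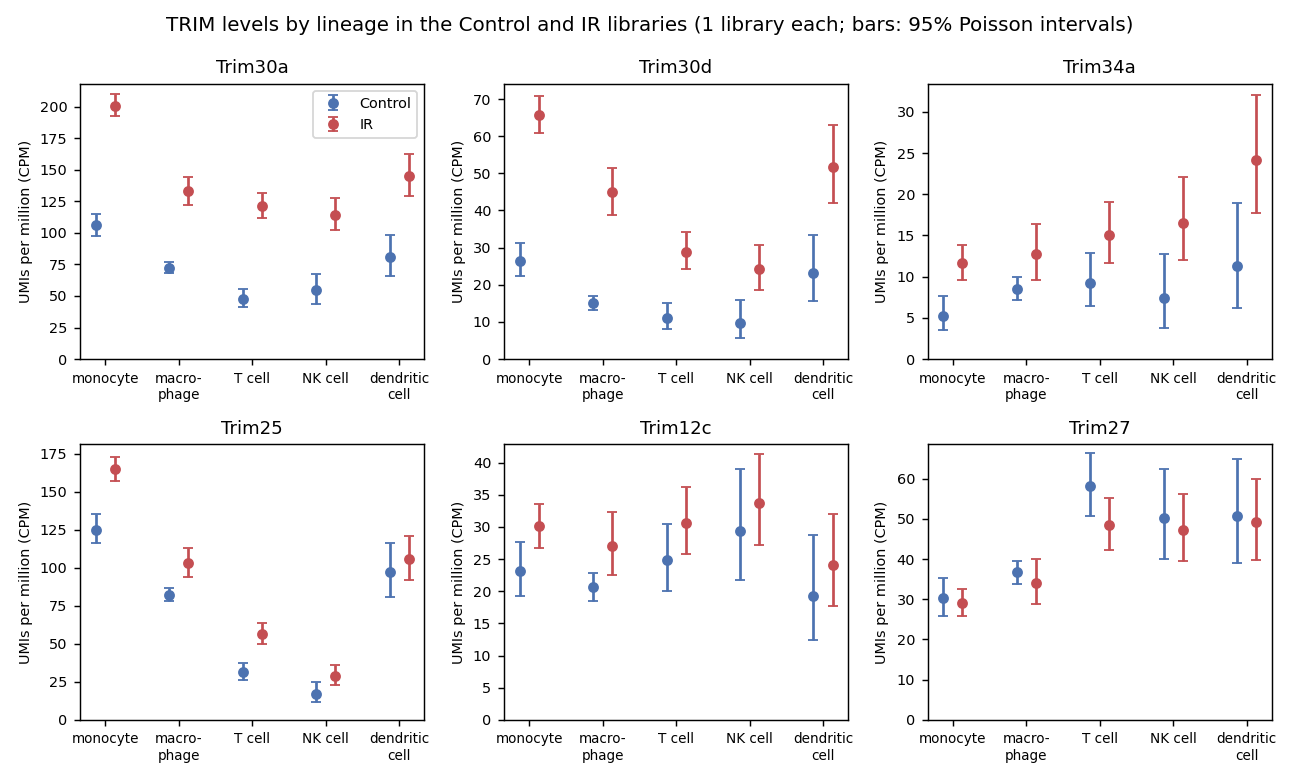
Level of 6 members (CPM, each panel with its own scale from 0) in the 5 lineage gates, for the Control library (blue) and the IR library (red), 1 library each, with 95% Poisson intervals of the count. Trim30a and Trim30d stand higher in IR in every gate with intervals apart, Trim25 is called higher in T cells, with intervals apart, and in NK cells, where they overlap, and Trim27 overlaps between the libraries throughout.

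Across the family, monocytes had the most members called. There 12 of the 36 measured members (33.3%) were called higher in IR, beside 5.65% of all genes under the same rule, and 4 were called lower, beside 5.91%. In macrophages 4 of 39 were higher (all genes 5.57%) and 6 lower (all genes 8.81%). T cells had 5 of 34 higher (all genes 5.47%) and 1 lower (all genes 4.67%). NK cells had 5 of 25 higher (all genes 3.94%) and 1 lower (all genes 7.23%). Dendritic cells had 3 of 22 higher (all genes 6.1%) and 1 lower (all genes 3.95%). The median log2 ratio of the measured members was 0.22 in monocytes against -0.04 over all genes, 0.06 against -0.08 in macrophages, -0.09 against -0.06 in T cells, -0.09 against -0.06 in NK cells and 0.08 against 0.03 in dendritic cells.

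**Figure D2:**
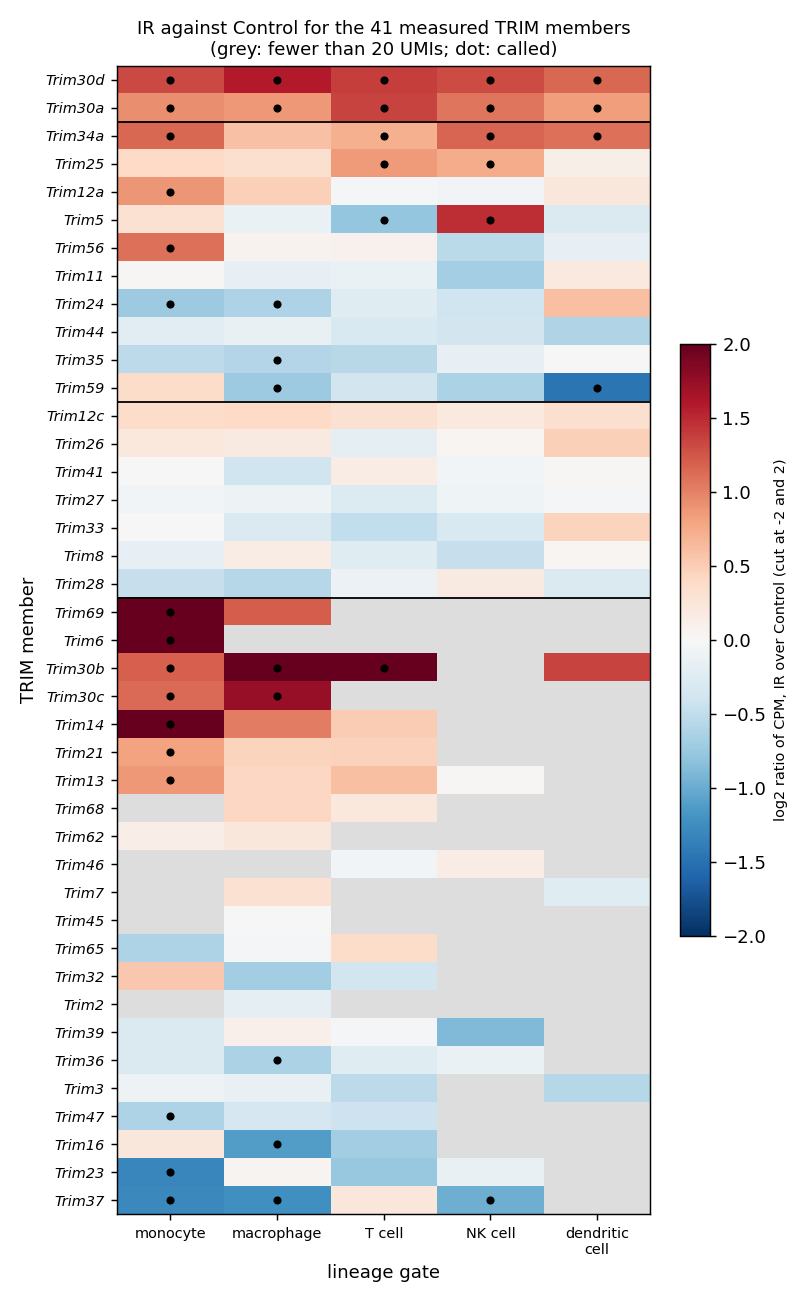
Log2 ratio of CPM, IR over Control, of the 41 members measured in at least 1 of the 5 lineage gates (columns), in the order risers, members that vary, steady members and members measured in some gates only (blocks parted by lines). Colours are cut at -2 and 2, grey cells had fewer than 20 UMIs over both libraries, and dots mark calls, which fill the whole rows of Trim30d and Trim30a and 12 higher and 4 lower cells of the monocyte column.

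Of the 15 listed members linked to interferon or antiviral defence, 14 were measured in monocytes and 10 of them were higher in IR, with none lower. The counts were 4 of 13 in macrophages, 5 of 12 in T cells with 1 lower, 5 of 9 in NK cells and 3 of 10 in dendritic cells. Over all genes, the share called higher lay between 3.94% and 6.1% in the 5 lineages. The list was chosen with earlier results of these libraries known, so its direction is not independent evidence.

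Trim34a, a B30.2-type member on chromosome 7, came closest to the rule of the risers. It was called higher in 4 lineages, from 5.25 to 11.6 CPM in monocytes, from 9.27 to 15.1 CPM in T cells, from 7.35 to 16.5 CPM in NK cells and from 11.3 to 24.1 CPM in dendritic cells. In macrophages it went from 8.46 to 12.7 CPM, with a log2 ratio of 0.58 that lay just under the 1.5-times limit and an interval of the ratio of 1.08 to 2.05. With a mitochondrial limit of 10%, with the highest 6% of doublet scores removed or with TMM scaling it met the rule of the risers, and their number became 3.

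The other Trim30 copies were sparse outside the myeloid gates. Trim30b was at 7.87 CPM in Control and 18.1 CPM in IR monocytes, a ratio of 2.3 (1.64 to 3.29). In macrophages it was at 2.13 and 9.12 CPM, a ratio of 4.28 (2.68 to 6.86), and in T cells it rested on 2 and 20 UMIs. In NK cells it had 0 UMIs in Control and 1 in IR. Trim30c was higher in IR in monocytes, 3.94 against 8.65 CPM, and in macrophages, 1.27 against 4.22 CPM, and had too few UMIs elsewhere.

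Trim25, the ubiquitin ligase that acts on the RNA sensor RIG-I, differed in level by lineage and by ratio. It was called higher in IR in T cells, from 31.2 to 56.5 CPM (ratio 1.81, 1.45 to 2.27), and in NK cells, from 17.2 to 28.6 CPM (ratio 1.67, 1.07 to 2.67). The NK cell call was lost when free RNA was subtracted and the log2 ratio became 0.62. The estimated share of free RNA among NK cell UMIs was 3.09% without irradiation and 6.32% after it. In T cells it was 8.86% and 13.8%, the highest of the 5 lineages. With free RNA subtracted, 4 members were called higher in T cells in place of 5. In monocytes Trim25 was at 125 and 165 CPM and in macrophages at 82.1 and 103 CPM. These ratios of 1.32 (1.2 to 1.44) and 1.25 (1.12 to 1.39) stayed under the limit with intervals off 1. In dendritic cells the levels were 97.3 and 106 CPM, and the ratio of 1.09 (0.867 to 1.38) could not be told from 1 at this depth. Of the 6 listed partners in that pathway, Ddx58, which encodes RIG-I itself, was called higher in 4 lineages, from 23.2 to 62.3 CPM in monocytes. Rnf135 was called in monocytes alone, while Mavs, Tbk1, Irf3 and Zc3hav1 were called in none of the 5.

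Several antiviral members were called in monocytes and in no other lineage. Trim56, which acts on the cGAS-STING pathway, was at 7.87 and 16.9 CPM there (ratio 2.15, 1.53 to 3.09), while its ratio was 1.05 in macrophages, 1.06 in T cells and 0.689 in NK cells. Trim12a was at 16.5 and 30.5 CPM (ratio 1.85, 1.45 to 2.37). Trim21, the cytosolic antibody receptor, was at 6.19 and 10.8 CPM (ratio 1.74, 1.17 to 2.65).
These calls were for single lineages, and the differences between lineages were not tested. Trim14 rested on 4 and 34 UMIs (ratio 4.36, 1.55 to 16.9) and Trim6 on 2 and 19 UMIs (ratio 4.87, 1.18 to 43.1). Trim13, a member anchored in the endoplasmic reticulum, was at 3.37 and 6.15 CPM, and Trim69 had 1 and 20 UMIs. Some of these members had too few UMIs for a call elsewhere. Trim6 was measured in monocytes alone, Trim69 in 2 lineages and Trim14 and Trim21 in 3. The lowest log2 ratio was 1.21 for Trim69, 0.51 for Trim14 and 0.44 for Trim21. For Trim13, measured in 4 lineages, it was 0.025, and for Trim12a, measured in 5, it was -0.06. Trim12c and Trim26, of the same list, were steady: Trim12c lay between 1.15 and 1.32 times in the 5 lineages and Trim26 between 0.885 and 1.39 times. Trim34b had no UMI in any kept barcode.

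Trim5, a B30.2-type member related to the retrovirus restriction factor of primates, was called in opposite directions in lymphocytes. It was at 10.9 CPM in Control and 6.35 CPM in IR T cells (41 and 29 UMIs), a ratio of 0.585 (0.35 to 0.964). In NK cells it was at 3.68 and 10.3 CPM on 6 and 28 UMIs, a ratio of 2.79 (1.13 to 8.25). The T cell call was lost under 6 of the alternative settings, and the difference between the lineages was not tested. Its counts may also be affected by a close copy: 21.3% of the windows of 60 bases in the last 500 bases of its transcripts occur in another member, most of them in Trim12c.

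The same check of shared sequence bears on other neighbours. For Trim30d it gave 16.2% of windows, shared with Trim30a, for Trim34a 20.4%, shared with Trim34b, and for Trim12c 4.63%. Trim30a, Trim30b, Trim30c and Trim12a shared none. Of the 68 members, 8 shared any window, so the others could be told apart from every other member along their whole 3′ end at that length. Genes outside the 68, pseudogenes among them, were not compared.

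The neighbours named so far lie in 1 stretch of chromosome 7, from Trim6 to Trim30d (104218793 to 104507849, GRCm38), which holds 10 members. Of these 9 were measured and 8 were called higher in at least 1 lineage. Of the 58 members elsewhere in the genome 32 were measured and 6 were called higher in at least 1, Trim13, Trim14, Trim21, Trim25, Trim56 and Trim69. Over all 11988 genes measured in at least 1 lineage, 14.8% were called higher in at least 1, beside 14 of the 41 members (34.1%). The stretch was picked out with these calls known. Trim21 also lies on chromosome 7, at 102557921 to 102565486, outside the stretch.

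**Figure D3:**
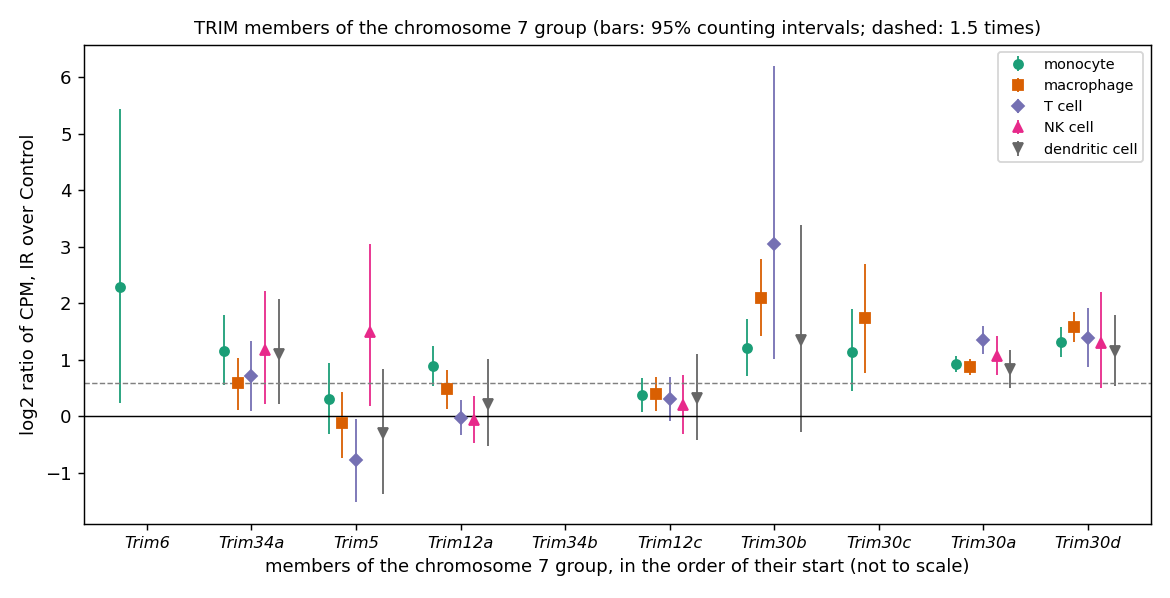
Log2 ratio of CPM, IR over Control, with 95% counting intervals, of the 10 members in the chromosome 7 stretch, in gene order and not to scale, 1 symbol per lineage gate where at least 20 UMIs were counted (none for Trim34b). The dashed line marks 1.5 times. Trim30a and Trim30d lie above it in all 5 gates, Trim12c below it in all 5, and Trim5 points both ways.

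Interferon-stimulated genes outside the family moved in the same libraries. Of 14 such genes listed, 12 were called higher in monocytes, 12 in macrophages, 13 in T cells, 9 in NK cells and 13 in dendritic cells, with none lower. Over all genes, 3.94% (NK cells) to 6.1% (dendritic cells) were called higher. This list too was chosen with earlier results of these libraries known. Isg15, a ubiquitin-like modifier, was at 166 and 902 CPM in monocytes, a ratio of 5.45 (5.09 to 5.85), and Ifit3 was at 2.38 and 47.3 CPM in T cells. In NK cells the median log2 ratio of this list was 1.21 against 2.64 in T cells, and Rsad2 was not called there, at 28.8 and 20.5 CPM. TRIM proteins with other gene symbols were listed as well. Pml, which builds nuclear bodies, was called higher in monocytes (13.9 to 28.5 CPM), macrophages, T cells and NK cells. Mefv, which encodes pyrin, was called higher in monocytes (33 to 52.5 CPM), macrophages and T cells. Mid1 was called in none of the 5, with ratios from 0.684 to 0.816.

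In the other direction, 9 of the 41 measured members (22%) were called lower in IR in at least 1 lineage, close to the 19.2% of all genes measured. Trim37, a ligase that acts on centrosomes, was at 5.62 CPM in Control and 2.31 CPM in IR monocytes (ratio 0.41, 0.23 to 0.726). In macrophages it was at 8.29 and 3.56 CPM (ratio 0.429, 0.239 to 0.721) and in NK cells at 15.9 and 8.07 CPM. In T cells it was at 5.82 and 6.78 CPM and was not called. Within Control macrophages Trim37 was at 4.99 CPM in cells without cycling genes and 12.4 CPM in cells with them, 2.48 times higher (1.74 to 3.59).
Trim59, a membrane-anchored member, was at 8.87 and 5.34 CPM in macrophages (ratio 0.602, 0.374 to 0.929) and at 11.3 and 4.1 CPM in dendritic cells, on 14 and 8 UMIs. Without the cycling cells it had too few UMIs in dendritic cells to be measured. In Control macrophages it was at 4.37 CPM outside and 14.5 CPM inside the cycling cells, 3.31 times higher (2.3 to 4.84). In cells with fewer than 2 UMIs of cycling genes, the log2 ratio between the libraries in macrophages was -0.23 for Trim59 and -0.42 for Trim37, and neither was called. Trim37 kept its call in monocytes under that setting, with a log2 ratio of -1.45, and had too few UMIs in NK cells. Trim30a ran the other way, at 79.1 CPM outside and 64.1 CPM inside the cycling Control macrophages. The contrast of cycling over other cells was not the same in every gate. For Trim30a it was 0.604 (0.473 to 0.768) in IR NK cells and 1.6 (1.1 to 2.27) in IR dendritic cells. For Trim37 it was 3.3 (1.27 to 8.05) in IR monocytes and 0.694 (0.317 to 1.5) in IR T cells. For Trim59 it was 2.16 (1.08 to 4.49) in IR NK cells and 0.843 (0.513 to 1.39) in IR T cells. Both risers were also called in the cells without cycling genes in all 5 lineages.

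The chromatin cofactors of the TIF1 group were not called higher in any lineage. Trim28, also called KAP1, which represses retroelements, was steady but close to the limit: it was at 76.5 CPM in Control and 51.6 CPM in IR macrophages (ratio 0.674, 0.584 to 0.776) and at 60.7 and 43.9 CPM in monocytes (ratio 0.723, 0.626 to 0.836). In T cells it was at 85.8 and 79 CPM and in NK cells at 77.8 and 88.4 CPM. Its level was 1.42 times (1.27 to 1.58) higher in cycling than in other Control macrophages.
Trim24 was called lower in monocytes, from 8.25 to 5 CPM, and in macrophages, from 11.2 to 7.34 CPM, and was at 22.5 and 34.3 CPM in dendritic cells (ratio 1.52, 0.967 to 2.46). The macrophage call was lost under 7 of the alternative settings. Trim33, which acts on SMAD4 signalling, stayed between 0.709 and 1.37 times. Trim66 had 11 UMIs over the 5 lineages.

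Single calls in the lower direction came from members of several kinds. In macrophages these were Trim16 (5.82 and 2.67 CPM), Trim35 (41.9 and 27.8 CPM) and Trim36 (8.98 and 5.78 CPM). In monocytes they were Trim23 (3.56 and 1.44 CPM) and Trim47 (14.4 and 9.42 CPM). The call was lost under 5 of the 12 alternative settings that gave a value for Trim35, under 3 of 11 for Trim36, under 3 of 11 for Trim47 and under 1 of 11 for Trim16. The steady members Trim8, Trim27 and Trim41 had ratios from 0.724 to 1.11, from 0.83 to 0.971 and from 0.755 to 1.11. Trim11 and Trim44 varied without a call. Of the other listed members none was called: Trim39, Trim62, Trim65 and Trim68 were measured in 2 to 4 lineages, Trim2, Trim3, Trim32 and Trim46 in 1 to 4.
The muscle members Trim54, Trim55 and Trim63 had 1 UMI in all kept barcodes, from Trim55. Of the brain and embryonic members, Trim9 had 2, Trim67 had 1 and Trim71 had 22 UMIs there, 6 of the last in the gate of collagen-expressing cells.

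Some members marked a lineage in both libraries alike. Trim7 was at 27.3 CPM in Control and 23 CPM in IR dendritic cells, 21.6 times (12.3 to 38.7) and 14.8 times (6.63 to 38.9) above macrophages, the next lineage. In the remaining 3 gates it had 0 to 7 UMIs per library. Trim35 was at 130 and 129 CPM in dendritic cells, 2.67 times (2.15 to 3.32) and 3.88 times (3.16 to 4.78) above T cells.
Trim47 was highest in macrophages among the 5 lineages, at 33.3 and 26.2 CPM, 2.31 times (1.82 to 2.96) and 2.78 times (2.11 to 3.68) above monocytes. Cells of the collagen-expressing gate, which had almost no Ptprc (the gene of CD45, 6.02 and 14 CPM), held 184 and 194 CPM of it. Trim25 was highest in monocytes, 1.29 times (1.06 to 1.57) and 1.55 times (1.34 to 1.8) above dendritic cells, and lowest in NK cells in both libraries. Trim30b and Trim30c were likewise highest in monocytes in both libraries, Trim30b within counting error of dendritic cells in Control. Trim30a, described with the risers, also led in monocytes in both. For the members not named here the leading lineage was within counting error of the next in at least 1 library.

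**Figure D4:**
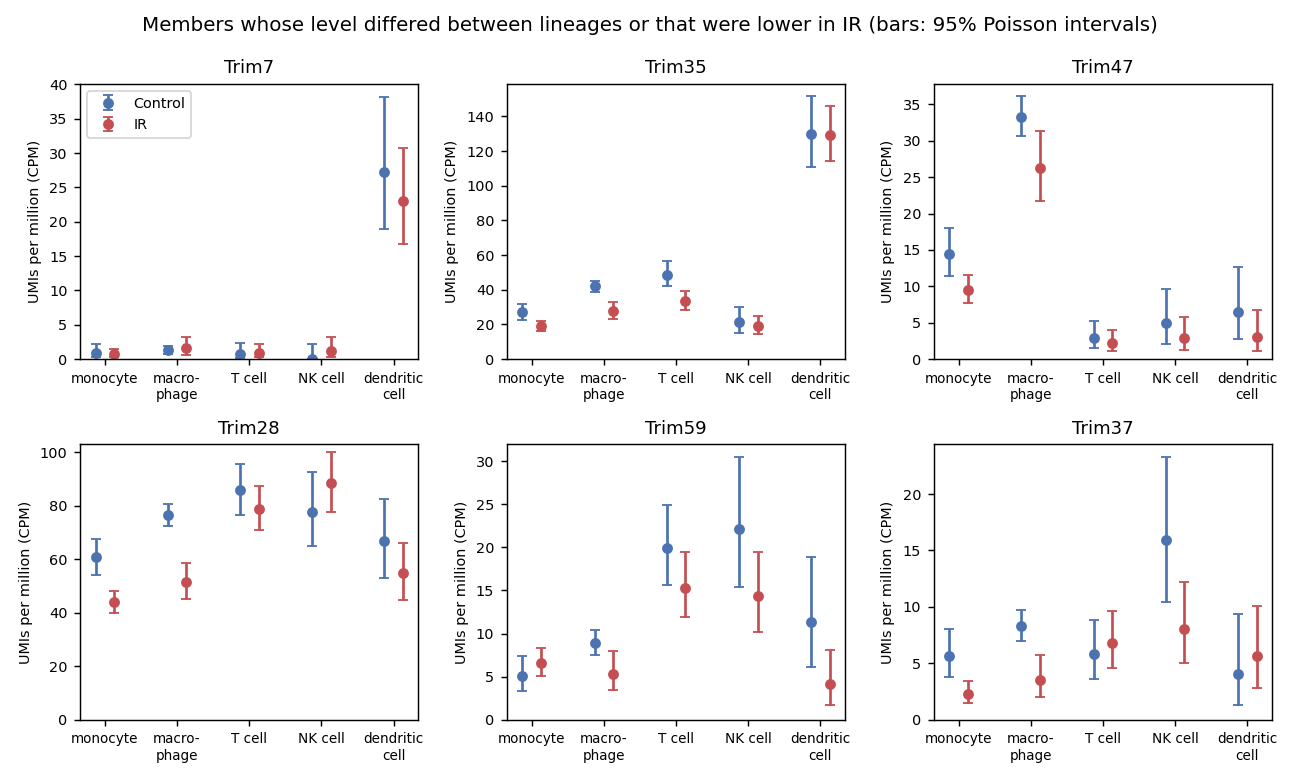
Level (CPM, each panel with its own scale from 0) of 6 members that marked a lineage or were lower in IR in some gates, for the Control (blue) and IR (red) libraries, 1 each, with 95% Poisson intervals. All 5 gates are shown. Trim28 is steady and has no call: it is lower in IR in monocytes and macrophages, by under 1.5 times. Trim7 and Trim35 stand highest in dendritic cells and Trim47 in macrophages in both libraries, and Trim37 is lower in IR in monocytes, macrophages and NK cells.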

How the data were processed

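Droplet single-cell libraries (10x 3′ v3.1, 4 pooled tumors per condition by the study's methods) were aligned and counted by the authors with Cell Ranger (6.0.1 in the processing notes, 4 in the matrix headers) on mm10. They deposited unfiltered raw UMI counts per gene and barcode, 48593879 UMIs in Control and 42406461 in IR.

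Barcodes with at least 1000 UMIs, 200 genes and at most 25% mitochondrial UMIs were kept (4679 Control and 3410 IR, with median UMIs of 7302 and 8268.5, and 6 barcodes shared). Gates used summed markers per 10000 UMIs (at least 3 marker UMIs). Their thresholds were set after the data had been seen. Barcodes in 2 gates (481 and 313) were dropped as possible doublets and 491 and 400 fitted no gate. Scrublet (scanpy 1.11.5) called 0 doublets and is taken as not having worked, so scores were used by rank in an alternative. Free RNA was left in. Gene ends and positions are those of GENCODE vM21.

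Members, lists and the family rule were chosen with earlier results of these data known. The members named are the risers, those called in any lineage, the 10 with the highest summed CPM and those on the role lists. Since each group had 1 library, there is no test and no p-value. The ratio, its interval and the calls were checked on simulated counts (Python 3.11.15, scipy 1.17.1). TMM factors came from edgeR 4.0.16.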

Additional observations from a re-analysis of the deposited data

Results flagged for a closer look

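Trim5 was called lower in IR in T cells (ratio 0.585) and higher in NK cells (ratio 2.79). The effects of the same comparison thus pointed in opposite directions in 2 lineages, and the difference was not tested.

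The risers, chosen for their rise in the 5 lineages, were also higher in IR in some barcodes outside those gates. In empty droplets, barcodes with 1 to 100 UMIs, Trim30a and Trim30d summed to 77.8 CPM in Control and 149 CPM in IR. The ratio was 1.91 (1.68 to 2.17), while all other members together had a ratio of 1.05 (0.99 to 1.11). Among those, Trim30b had 3.45 (2 to 6.21), Trim34a 2.05 (1.39 to 3.06) and Trim12c 1.72 (1.26 to 2.34), while Trim28 had 0.69 and Trim41 0.692. RNA in empty droplets can come from the gated cells, and their mix changed. Macrophages went from 39.5% to 11.4% of kept barcodes and monocytes from 16.8% to 31.8%. The source of this RNA was not tested. In the neutrophil gate (32 Control and 219 IR cells) Trim30a and Trim30d summed to 184 and 463 CPM on 14 and 530 UMIs, a ratio of 2.51 (1.48 to 4.63). In the collagen-expressing gate (58 and 45 cells) they summed to 37.1 and 72.4 CPM, a ratio of 1.95 (1.32 to 2.93). There Trim30a had a ratio of 2.71 (1.61 to 4.77) and Trim30d of 1.15 (0.611 to 2.2).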

How the results depend on the processing

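No paired analysis was possible because each group held only 1 library. Of the 42 calls of a member in a lineage, 22 held under every alternative that gave a value, and none changed direction. The call at 2 times was not applied to these single calls. Settings that left too few UMIs gave no value and were not counted as a loss, so Trim59 in dendritic cells was judged under 7 settings. Trim30a ranged from 1.36 to 2.66 times and Trim30d from 1.83 to 11.9 times over lineages and settings, the last on 1 and 15 thinned UMIs in NK cells.

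The number of risers became 1 with a call at 2 times and 0 when cells were thinned to 1000 UMIs. Thinning left fewer UMIs to count, and the ratio of Trim30a in T cells became 1.36 (0.86 to 2.15) on 40 and 42 UMIs. With thinning the members called higher were 4 in monocytes, 2 in macrophages, 0 in T cells, 1 in NK cells and 0 in dendritic cells. Those called lower were 0, 1, 1, 0 and 0 in the same order, and the macrophage median turned to -0.215. With a call at 2 times, 3 were higher in T cells, and 2 in monocytes, 2 in macrophages and 0 in T and NK cells were lower. With doubled gate thresholds, those lower were 2 in monocytes, 3 in macrophages and 0 in T and dendritic cells. In cells without cycling genes they were 3 in macrophages and 0 in T and dendritic cells. TMM scaling gave 3 lower in macrophages and 0 in T cells. With the highest Scrublet scores removed, 3 were higher in T cells, and 0 were lower in NK and dendritic cells. A minimum of 2000 UMIs or a mitochondrial limit of 10% left 0 lower in T cells. A gene minimum of 50 UMIs left 0 lower in NK and dendritic cells, and 10 UMIs gave 5 higher and 2 lower in dendritic cells. Thinning and the gene minimum change the UMIs counted, but the cause of these shifts was not tested under any setting. Giving each cell the same weight was added after seeing the data and kept 2 risers. With 1 library per group, a difference between tumors, sorts or libraries and the effect of IR cannot be told apart.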

Other observations

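Neutrophils, which belong to none of the 5 lineages compared, held the highest summed level of the family among the gates in IR: all members summed to 882 CPM in the Control library and 1360 CPM in the IR library, a ratio of 1.54 (1.21 to 2). The Control value rests on 32 cells and 67 UMIs. Trim30a stood at 348 CPM in IR neutrophils (314 to 384), against 201 CPM in IR monocytes (193 to 210), and Trim12a at 115 CPM (96.5 to 137) against 30.5 CPM (27.2 to 34). Trim25 was at 192 CPM there (168 to 219). Mast cells or basophils and B cells held 15 and 10 UMIs of the risers over both libraries, too few for a ratio.

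In the collagen-expressing gate, Trim2, an NHL repeat member, was at 14 CPM in Control and 29.5 CPM in IR, a ratio of 2.1 (1.12 to 4.19), and Trim12a, Trim12c and Trim25 were also higher in IR, with ratios of 2.6, 2.52 and 1.89. Trim39 was lower there, on 16 and 8 UMIs.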
